A study of Mus musculus with 120 samples.

Results

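The caveolin and cavin genes Cav1, Cav2, Cavin1, Cavin2 and Cavin3 were followed in the livers of 60 male mice of 30 strains. They are 5 of the 18193 genes that the array table names, and 10 of its 45037 probe sets carry their symbols, with the older names Ptrf, Sdpr and Prkcdbp read as Cavin1, Cavin2 and Cavin3. The family was selected on the difference of Cav1 between MSM and B6 in these same arrays, so the MSM and B6 levels of all its members are given as a description, with no test. All mice were males of 10 weeks, untreated, whose livers were taken after 4 h without food. C57BL/6J (B6) is the control strain, MSM is an inbred strain that goes back to wild mice caught in Japan, and the other 28 strains carry 1 chromosome of MSM, or its C (centromeric) or T (telomeric) part, or the mitochondrial genome (mt), on the B6 background. The labels do not give where the C and T parts end. Each strain is represented by 2 males, numbered here in accession order, and each male by 2 arrays. The male was read from the animal number in the label, which the labels do not spell out.

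Caveolae are flask-shaped pits of the plasma membrane. Caveolins are inserted in the inner leaflet of the membrane and build the pit, and cavins are cytoplasmic proteins that assemble on it as a coat. Cav1 is the principal structural caveolin outside muscle, Cav2 forms mixed oligomers with it and depends on it to reach the cell surface, Cavin1 is needed for caveolae to form, Cavin2 helps to shape the membrane and Cavin3 links the coat to signalling. Caveolae are abundant in endothelial cells, adipocytes, smooth muscle and fibroblasts and sparse in hepatocytes, so in whole liver these transcripts come in large part from the minority of vascular and mesenchymal cells. In whole tissue, a smaller number of such cells and less RNA in each of them cannot be told apart.

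Cav2 and Cav1 are neighbours in this order on mouse chromosome 6, between Tes and Met, and both are read from the same strand. Cavin2 lies on chromosome 1, Cavin1 on chromosome 11 and Cavin3 on chromosome 7. The 250 bases before the RefSeq start of Cav2 and before the first of the 2 listed starts of Cav1 are shown because these 2 genes are the ones that were high together in MSM and in a chromosome 6 strain. They are taken from RefSeq on GRCm38.p6, at chr6:17280935-17281184 and chr6:17306085-17306334, both on the plus strand. Capitals mark the letters GGGCGG, the core of the GC box, on either strand.
Cav2: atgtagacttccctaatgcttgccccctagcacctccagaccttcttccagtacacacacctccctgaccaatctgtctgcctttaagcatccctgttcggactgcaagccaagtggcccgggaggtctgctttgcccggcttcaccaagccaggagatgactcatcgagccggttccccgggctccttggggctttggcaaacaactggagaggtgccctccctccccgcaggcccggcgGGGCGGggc
Cav1: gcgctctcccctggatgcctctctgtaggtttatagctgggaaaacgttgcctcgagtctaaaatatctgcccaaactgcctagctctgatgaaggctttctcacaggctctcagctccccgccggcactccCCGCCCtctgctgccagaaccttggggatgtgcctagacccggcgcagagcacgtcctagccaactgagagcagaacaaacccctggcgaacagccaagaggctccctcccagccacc
Each window holds 1 such match, on the strand shown in Cav2 and on the other strand in Cav1. The letters occur on either strand in 32.7% of the 32851 windows of this length in the same RefSeq table. Cav2 also has 1 match of CCAAT, present in 33.8% of windows, and Cav1 has 1 match of TATAAA, on the strand not shown, present on either strand in 12.4%. Neither window holds CACGTG (6.02% of windows) or TGTTTAC (3.17%). The matches do not overlap. GC content is 62% in the Cav2 window and 59.6% in the Cav1 window, against a median of 52.4% over all windows. The sequences are those of the reference assembly and not of MSM, and whether bases that differ in MSM lie under the probes was not tested.

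Values are log2 signals as the authors deposited them, and the deviations of each probe set appear shrunk by a factor of its own. A difference between strains is therefore not a log2 fold change, and the sizes of differences are compared between probe sets only in units of the standard deviation between males of a strain (residual SD). Of the 10 member probe sets 8 were tested, because 2 or more of the 60 livers gave a signal above the median of the whole table (7.417). The third Cavin1 probe set (1421431_at) and the only Cavin3 probe set (1423771_at) had 0 of 60 males above it. Of the hepatocyte marker genes 10 of 10 passed the same filter, as did 11 of 12 vascular endothelial, 9 of 10 Kupffer cell and 10 of 12 stellate and fibroblast genes. Fewer passed for smooth muscle (5 of 8), skeletal muscle (2 of 6) and the mesothelium (1 of 7). Over the whole array 11949 of 18193 genes passed, so the filter does not tell hepatocytes from the other cells of the liver. One liver stood apart from the rest over the whole array: Chr9 male 1 was the highest or lowest of 60 males in 12.9% of the tested probe sets. The member call in Chr9, which rests on it, is given without it too. Other values of Chr9 and the ranges over males include it.

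Over the 28 consomic strains, 4 contrasts of member probe sets were called. Of these, 3 were in a strain that carries the chromosome of the gene, or a part of it, from MSM, and 1 was not. Whether the gene's own position accounts for these calls was not tested. Cav2 and, in 1 of 2 livers, its neighbour Cav1 rose in the Chr6C strain, which carries the centromeric part of MSM chromosome 6. Cavin2 rose in the Chr1 strain by 1 of its 3 probe sets, and the second Cav2 probe set fell in the Chr9 strain. A strain was compared with the average of those consomic strains whose copy of the same chromosome is wholly from B6, with the B6 and MSM strains left out. These 4 calls were made among 224 contrasts of a member probe set (1.79%), where 0.759% of all contrasts of all probe sets were called (limma, Benjamini-Hochberg adjusted p below 0.05). Against the 2 B6 males, 2 of 224 contrasts were called (0.893%, background 0.365%), both in Chr6C. All contrasts with B6 share these 2 males, which also entered the comparison on which Cav1 was chosen, so they are not independent of that choice. The count of 4 was 2 without Chr6C male 2, 2 without Chr1 male 2 and 3 without Chr9 male 1. The count against B6 ranged from 0 without Chr6C male 2 to 4 without Chr9 male 2, and it was 1 without most other single males.

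**Figure D1:**
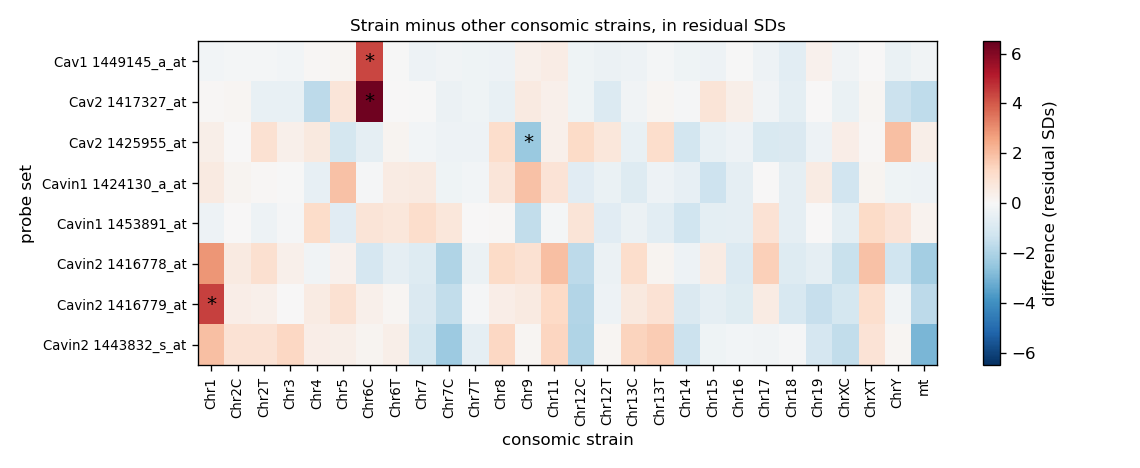
Difference of each of the 28 consomic strains (x axis) from the mean of the consomic strains with no part of the same MSM chromosome, for the 8 tested member probe sets (y axis), in residual SDs (colour, red higher, blue lower); asterisks mark an adjusted p below 0.05 in limma. Cav2 in Chr6C is at 6.32 residual SDs, Cavin2 1416779_at in Chr1 at 4.43 and Cav1 in Chr6C at 4.33, with residual SDs that include the spread of the Chr6C males (without that strain, 0.00799 in place of 0.0316 for Cav1 and 0.00181 in place of 0.00274 for Cav2).

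Cav1, the caveolin that builds the pit, is measured by probe set 1449145_a_at. It was high in the livers of MSM and in 1 of the 2 livers of Chr6C, and near 7.59 in every other liver. The MSM males had 7.959 and 7.928, and the B6 males 7.588 and 7.599. MSM exceeded B6 by 0.350 ± 0.031 (SE, n = 2 and 2 males), the difference for which the family was chosen. The 52 males of the 26 consomic strains without MSM chromosome 6 lay between 7.569 and 7.614 with a median of 7.588. Both MSM livers lay far above that range and both B6 livers inside it.

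In Chr6C, male 2 had a Cav1 signal of 7.845 and male 1 had 7.608. The 2 arrays of male 2 read 7.841 and 7.849 and those of male 1 read 7.614 and 7.603, so each liver was measured alike on both of its arrays. Male 2 stood above all 52 males, at 72.0% of the distance from their mean to the MSM mean, and male 1 lay inside their range, at 5.17%. The males of Chr6T, which carries the telomeric part, had 7.595 and 7.583, both within the range of the 52.

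Cav1 was higher in Chr6C than in the other consomic strains by 0.137 ± 0.0225 (SE, 2 against 52 males; limma adjusted p = 0.000436). In that comparison 0.726% of all tested probe sets were called. The call rested on 1 liver: without Chr6C male 2 the difference was 0.0183 ± 0.0080 (adjusted p = 0.578), and without male 1, the liver inside the range of the 52, it was 0.255. In such contrasts Chr6C is a single liver, which is assumed to vary as the males of the other strains do. Against B6 the Chr6C difference was 0.133 ± 0.031 (adjusted p = 0.0468), with the same B6 males on which Cav1 was chosen, so this is no separate support. Cav1 in Chr6T differed from the other consomic strains by -0.00094 ± 0.0225 (adjusted p = 0.9995; 0.54% of probe sets called), and this sign turned without Chr6T male 2.

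The spread between the 2 Chr6C livers made up most of the error of Cav1. Its residual SD was 0.0316 with them and 0.00799 without the Chr6C strain. The direct contrast of Chr6C with Chr6T, 0.138 ± 0.031, missed the threshold (adjusted p = 0.168), and it was 0.256 without Chr6C male 1 and 0.0192 without male 2. Without the Chr6C strain, Cav1 was called by limma in 0 of the other 27 strains (4 had an unadjusted p below 0.05), and the F test among strains gave an adjusted p of 0.292, after 0.438 with Chr6C. Apart from MSM and Chr6C, the next strain means were those of Chr11 (7.609), Chr9 (7.604) and Chr19 (7.602), and the lowest were ChrY (7.581) and Chr18 (7.574). Chr11, Chr9 and Chr19 do not differ beyond their spread, since each differed from the next by less than the SD between its own males (0.007, 0.009 and 0.009). None of these 5 strains passed the test against the other consomic strains, with adjusted p values from 0.822 in Chr18 to 0.9997 in ChrY.

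**Figure D2:**
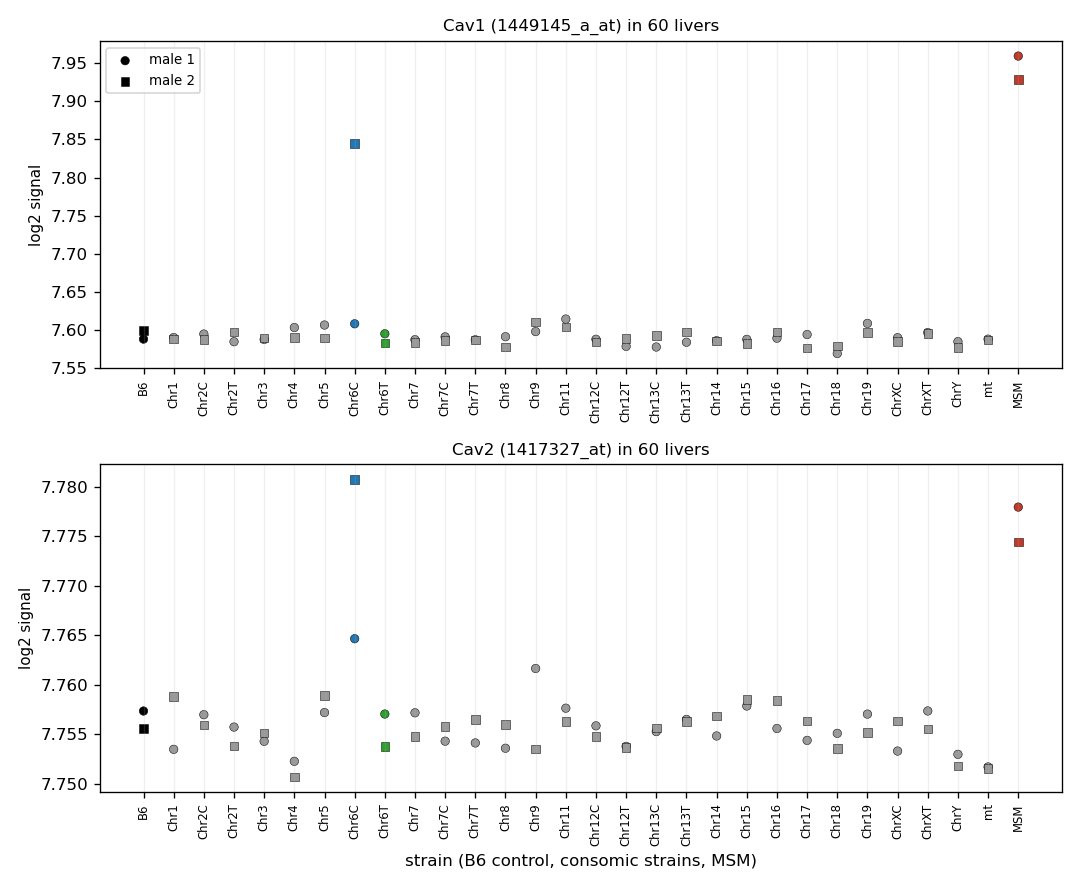
Log2 signal (y axis) of Cav1 and of Cav2 in each of 60 males (circles male 1, squares male 2) by strain (x axis), with B6 black, Chr6C blue, Chr6T green, MSM red and the other strains grey. For Cav1 the MSM males and Chr6C male 2 (7.845) lie above all others, and for Cav2 both Chr6C males (7.765 and 7.781) lie above the 52 males without MSM chromosome 6.

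Cav2, the partner of Cav1 in mixed oligomers, rose in both livers of Chr6C. The signals of probe set 1417327_at were 7.765 in male 1 and 7.781 in male 2. The 52 males without MSM chromosome 6 lay between 7.751 and 7.762, with a median of 7.756. The MSM males had 7.778 and 7.774, and the B6 males 7.757 and 7.756. Thus both Chr6C livers were above all 52, male 1 at 44.5% and male 2 at 122% of the distance to MSM, and male 2 was the highest of all 60 livers.

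The difference of Chr6C from the other consomic strains was 0.0173 ± 0.0020 (SE; adjusted p = 5.33e-07). It was 0.0093 ± 0.0018 without male 2 (adjusted p = 0.00886) and 0.0253 ± 0.0018 without male 1 (adjusted p = 3.91e-11), each again with a single Chr6C liver whose error is taken from the males of the other strains. Against B6 it was 0.0162 ± 0.0027 (adjusted p = 0.000814). In Chr6T the Cav2 signals were 7.757 and 7.754, within the range of the 52. Chr6C exceeded Chr6T by 0.0173 ± 0.0027 (adjusted p = 0.00144), in a contrast in which 0.0463% of probe sets were called. That last call was lost without Chr6C male 2 (0.0092, adjusted p = 0.533) and without Chr6T male 2 (0.0156, adjusted p = 0.138).

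The strain means of Cav2 behind MSM (7.776) and Chr6C (7.773) were those of Chr15 (7.758), Chr5 (7.758) and Chr9 (7.758), with mt (7.752) and Chr4 (7.751) at the bottom. Neither of the lowest strains passed the test against the other strains (adjusted p = 0.503 for mt and 0.397 for Chr4). Chr9 male 1 was the highest of the 52 males at 7.762, and its partner had 7.753, rank 52 of all 60 livers.

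The second Cav2 probe set, 1425955_at, showed none of this. All 60 males lay between 7.54754 and 7.54776, and the 2 Chr6C males, at 7.54762 and 7.54766, were inside the range of the 52. Its difference in Chr6C was -0.56 residual SDs (adjusted p = 0.988), against 6.32 for the first probe set, and the 2 probe sets of Cav2 correlated at a Spearman rho of -0.16 over the 60 males. The MSM males had 7.54773 and 7.54771, and the B6 males 7.54766 and 7.54767. Its only call was in Chr9, the lowest strain, where the difference was -7.76e-05 ± 2.29e-05 (adjusted p = 0.0458). Without Chr9 male 1, the liver that stood apart on the whole array, that difference had an adjusted p of 0.999. In which transcripts of Cav2 the probe sets lie was not analysed here.

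**Figure D3:**
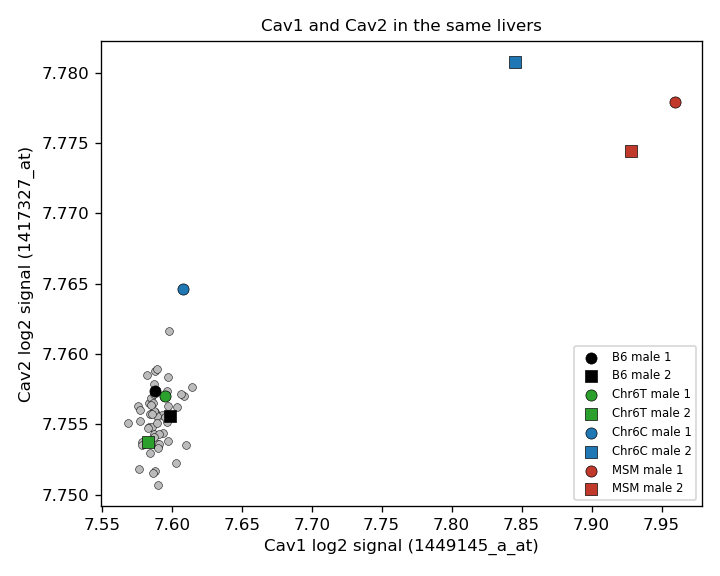
Cav1 log2 signal (x axis) against Cav2 log2 signal (y axis) in 60 livers, with B6 black, Chr6T green, Chr6C blue, MSM red and the other strains grey; circles are male 1 and squares male 2. Chr6C male 2 lies with the MSM males in both genes, and Chr6C male 1 lies above the cluster in Cav2 (7.765) and at its edge in Cav1 (7.608).

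Cav1 and Cav2 were thus high together in 3 livers. Across all 60 males their Spearman correlation was 0.32, and over the 56 males without MSM and Chr6C it was 0.17. These correlations are descriptions, and the points share arrays and strains. The probe sets of different family members correlated between -0.24 and 0.33 over the 60 males.

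The signals of other chromosome 6 genes were set beside Cav1 in the Chr6C livers. Among 986 tested probe sets of the chromosome, 17 had both MSM males beyond the 52 males by more than their whole range, Cav1 and Cav2 included. In 14 of the other 15, both Chr6C males lay beyond the 52 on the MSM side, and the exception was Lag3, a receptor of activated T cells. The median position of these 15 was 98.8% of the MSM distance in Chr6C male 1 and 100.3% in male 2. Several stood part way, with Suclg2 at 38.4% in male 1 and 63.1% in male 2, Bid at 49.7% and 54.5%, and Vamp8 at 44.4% and 77.6%. Genotypes of these animals were not analysed here.

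The nearest genes of this group lie on either side of the caveolins. Tfpi2 lies farther away than the 5 nearest tested genes of the centromeric side, and St7 is among the 5 nearest of the telomeric side. Tfpi2, a secreted protease inhibitor on the centromeric side, stood at 108% of the MSM distance in Chr6C male 1 and 110% in male 2. St7, on the telomeric side, stood at 70.7% and 79.9%. In Chr6T both genes were within the range of the 52 males, as Cav1 and Cav2 were, and from Vamp8 to Mug1 all 12 probe sets of this group were on the MSM side in both Chr6T males. The same 12 were on the MSM side in both Chr6C males, so the 2 strains shared these signals. Chr6C male 1 thus had signals of Tfpi2 and St7 on the MSM side and a Cav1 signal inside the range of the livers without MSM chromosome 6. This liver was the highest or lowest of the 60 males in 1.54% of the tested probe sets and male 2 in 0.687%, against a median of 1.08% over all males. Why the 2 livers differed in Cav1 was not tested.

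**Figure D4:**
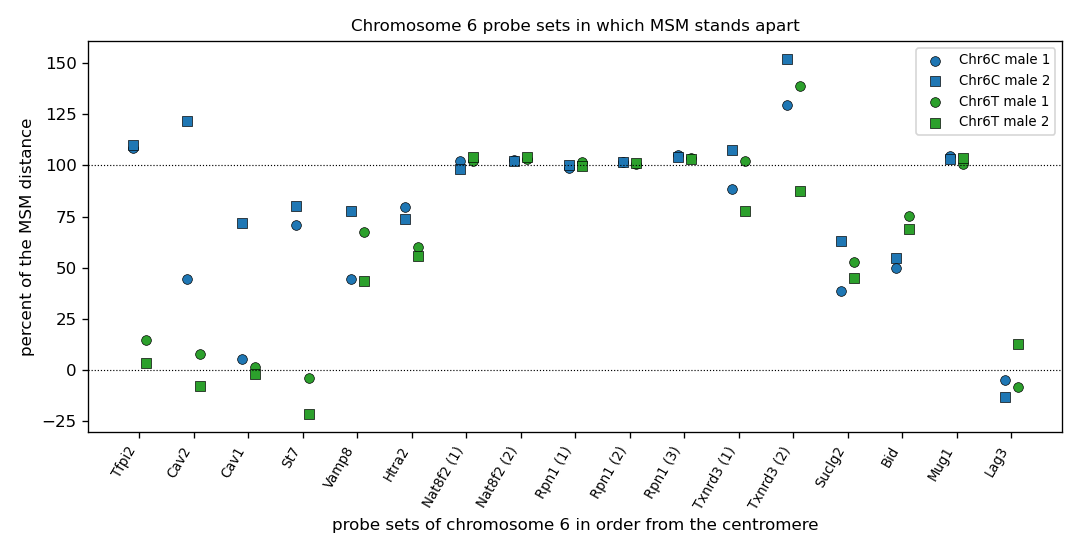
Position of each Chr6C (blue) and Chr6T (green) male between the mean of the 52 males without MSM chromosome 6 (0%) and the MSM mean (100%; y axis) for the 17 probe sets of chromosome 6 in which MSM stood apart, in order from the centromere (x axis); circles are male 1, squares male 2, and numbers after a gene separate its probe sets. The 2 Chr6C males part at Cav1 (5.17% and 72.0%) and at Cav2 (44.5% and 122%). They lie together at Tfpi2 and St7, the nearest of these probe sets on either side.

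Among the 5 nearest tested genes on each side of the pair, 2 were called in Chr6C besides the caveolins. St7 was higher by 0.00107 ± 0.000095 (adjusted p = 3.28e-09) and Bmt2, on the centromeric side, was lower by 0.00044 ± 0.000080 (adjusted p = 0.00155). Capza2, a subunit of the actin capping protein, had an adjusted p of 0.0694. The direct neighbours Tes, a focal adhesion protein, and Met, the receptor of hepatocyte growth factor, had adjusted p values of 0.959 and 0.888. The remaining 5 (2610001J05Rik, Foxp2, Mdfic, Wnt2 and Lsm8) had adjusted p values from 0.798 to 0.999.

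Averaged over each list, markers of the cells in which caveolae abound lay within the range of the 52 livers in both Chr6C males. Such a mean does not show that each marker, or the number of these cells, was unchanged. Over the 12 lists of caveola partners and cell markers, the only tested gene called in Chr6C was Pparg, the adipogenic nuclear receptor and itself a chromosome 6 gene, which was lower (adjusted p = 0.0160). Expressed as the mean of a list in SDs of the 52 males, vascular endothelial markers were at 0.33 in Chr6C male 1 and -0.04 in male 2, smooth muscle markers at 0.38 and -0.09, adipocyte markers at -0.31 and -0.97, and stellate and fibroblast markers at -0.24 and -0.35. All of these lay within the range of the 52 males, which for vascular endothelial markers ran from -1.58 to 2.13. Only the hepatocyte list of male 1, at 1.05, was outside its range, whose upper end was 0.93. Under quantile normalization of the arrays, 7 listed genes were called in Chr6C (Pparg, Ehd1, Upk1b, Lmod1, Dcn, Tie1 and Emcn, adjusted p from 0.0184 to 0.0465), where 1750 of all tested probe sets were called, after 141 in the deposited scale.

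Cavin2, a cavin that shapes the membrane, had its highest signals in the Chr1 strain, which carries its own chromosome from MSM. In probe set 1416779_at the Chr1 males had 7.9632 and 7.9644, and the 54 males of the other 27 consomic strains reached from 7.9589 to 7.9621 with a median of 7.9607. The MSM males had 7.9618 and 7.9624, and the B6 males 7.9604 and 7.9617. Both Chr1 livers were thus above all other livers, MSM included. The difference of Chr1 from the other consomic strains was 0.0032 ± 0.00051 (SE; adjusted p = 0.000254), where 0.726% of all probe sets were called. It was called without Chr1 male 1 (adjusted p = 0.00538) and not without male 2 (0.0026, adjusted p = 0.221), nor against the B6 males (0.0028 ± 0.00071, adjusted p = 0.0998).

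The other 2 probe sets of Cavin2 pointed the same way without passing the test. In 1416778_at the Chr1 males had 8.70541 and 8.70569, ranks 6 and 1 of 60, the difference was 0.00048 ± 0.00012 and the adjusted p was 0.0506. In 1443832_s_at they had 7.83842 and 7.83870, ranks 10 and 1, and the adjusted p was 0.599. The 3 probe sets rose and fell together from male to male, with Spearman correlations of 0.70, 0.72 and 0.83 over the 60 males.

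The F test among the 28 consomic strains called 4 of the 8 tested member probe sets, where 6.75% of all probe sets were called. These were Cav2 1417327_at (adjusted p = 0.0103) and all 3 of Cavin2 (0.0316, 0.0350 and 0.0342). Without the Chr6C and Chr6T strains the Cav2 value was 0.861. Without the Chr1 strain the Cavin2 values were 0.0807, 0.357 and 0.0493, so 1443832_s_at alone was still called. Its strain means were lowest in mt, Chr7C and Chr12C, and mt, with males at 7.8372 and 7.8378, came nearest to the threshold (adjusted p = 0.0638). The number called by the F test was 1 without any one of Chr1 male 2, Chr11 male 1, Chr12C male 2 or Chr7C male 1, and 2 without Chr12C male 1, Chr7C male 2, mt male 1 or ChrXT male 2.

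**Figure D5:**
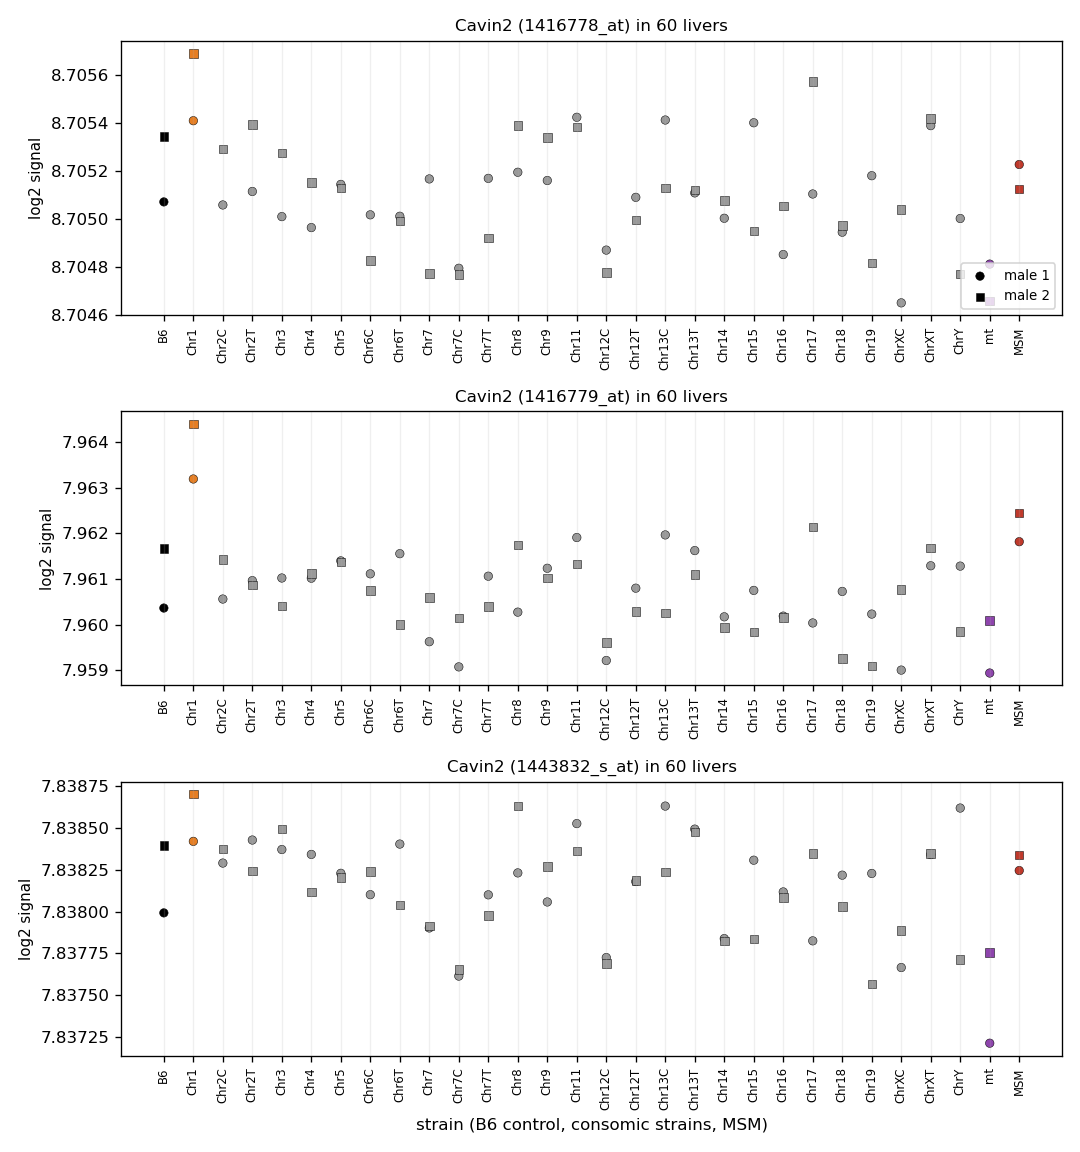
Log2 signal (y axis) of the 3 Cavin2 probe sets in each of 60 males (circles male 1, squares male 2) by strain (x axis), with Chr1 orange, MSM red, B6 black, mt purple and the other strains grey. A Chr1 male is the highest liver in each of the 3 probe sets, and in 1416779_at both Chr1 males (7.9632 and 7.9644) lie above all others.

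Cavin1, the cavin without which caveolae do not form, was called in no strain by limma in its 2 tested probe sets, with an unadjusted p below 0.05 in 2 of 28 strains for 1424130_a_at and in 0 of 28 for 1453891_at. In 1424130_a_at the 60 males ranged from 7.80674 to 7.80698. The Chr11 males, which carry Cavin1 from MSM, had 7.80689 and 7.80683, within the range of the others, and their difference was 0.88 residual SDs (adjusted p = 0.837; 1.51% of probe sets called). The highest strain means were those of Chr5 (adjusted p = 0.247) and Chr9 (adjusted p = 0.110), and the highest single liver was Chr9 male 1. The MSM males had 7.80674 and 7.80679 and the B6 males 7.80681 and 7.80680. This difference, -3.7e-05 ± 4.0e-05 (SE), was within its error, and in the untested 1421431_at MSM was above B6 by 2.2e-05 ± 8.7e-06. In 1453891_at the MSM males were the 2 highest of 60 (7.608930 and 7.608929, against 7.608905 and 7.608910 in B6), in a range of 2.68e-05 over all livers, where the SD between arrays of 1 male was 8.13e-06. The 2 tested probe sets of Cavin1 correlated at 0.00 over the 60 males, and the F test gave adjusted p values of 0.652 and 0.862.

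Cavin3, the signalling cavin, had a signal below the overall median in every liver and was not tested. Its 60 males ranged from 7.270010 to 7.270041, and the SD between arrays of 1 male (8.87e-06) exceeded that between males of a strain (6.56e-06). The carriers of MSM chromosome 7 had strain means of 7.270027 in Chr7, 7.270021 in Chr7C and 7.270021 in Chr7T, against 7.270028 on average in the 50 males without it. MSM (7.270033) and B6 (7.270032) had nearly the same mean. With no filter on low signals the F test gave an adjusted p of 0.953. No strain difference in Cavin3 was detected.

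Of 7 tested genes of the caveolar machinery, which holds the neck ATPases of the Ehd family, Pacsin3, Dnm2 and Flna, 0 were called between MSM and B6 by limma, and 1 had an unadjusted p below 0.05. This was Ehd1 (unadjusted p = 0.0273, adjusted p = 0.0913), with a difference of -2.30 residual SDs. Over all tested probe sets 13.4% were called higher and 9.95% lower in MSM. The median of the 7 was 0.20 residual SDs, and that of all 11949 tested genes was 0.59. Among 14 proteins that reside in caveolae and related membrane domains, Nos3, the endothelial nitric oxide synthase that Cav1 inhibits (adjusted p = 9.01e-09), and Atp1b1, a sodium pump subunit (adjusted p = 0.00088), were higher in MSM. Insr, the insulin receptor (adjusted p = 0.000114), Bmpr2, a BMP receptor (adjusted p = 0.00146), and Cd36, a fatty acid transporter (adjusted p = 0.0222), were lower.

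These directions depend on the scaling. When the arrays were quantile normalized again, 96.6% of all calls between MSM and B6 were higher in MSM, after 57.4% in the deposited scale. Of 19437 tested probe sets, 15892 were then called higher and 566 lower. Beside that, 7 of 7 machinery genes and 11 of 14 residents were called higher with 1 lower, so these counts do not set the genes apart from the array. Nos3, Atp1b1 and Cd36 kept their sign and call, whereas Ehd1, Insr and Bmpr2 turned their sign. The median difference over all tested probe sets was 0.00126 under quantile normalization, after 1.31e-05 in the deposited scale. Deviations are shrunk by a factor that differs between probe sets, so these turns of sign are no separate check of direction.

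Markers of the cells that hold caveolae were called in MSM against B6 as follows, beside 13.4% higher and 9.95% lower over all tested probe sets. Among vascular endothelial genes 2 of 11 were higher (Tie1, adjusted p = 0.000199, and the junction protein Esam, adjusted p = 0.000381) and 0 lower, and among sinusoidal endothelial genes Lyve1, a hyaluronan receptor, was higher (adjusted p = 0.00376) and Clec4g, a lectin, lower (adjusted p = 0.0105) of 8. Of 10 stellate and fibroblast genes 2 were higher (Rgs5 and Gdf2) and 1 lower (Lrat, the enzyme that stores retinol as esters), and of 5 smooth muscle genes 0 were called. Of 5 adipocyte genes Plin4, a lipid droplet coat protein, was higher and Pparg lower. Both MSM livers were within the range of the 52 males in the mean of each of these 5 lists. Of other liver cells, 3 of 9 Kupffer cell genes were lower (Csf1r, Clec4f and Vsig4), 2 of 3 cholangiocyte genes were higher (Krt23 and Epcam) and 2 of 10 hepatocyte genes were lower (Serpinc1 and Hamp). The Kupffer list lay below the range of the 52 in both MSM livers (-2.81 and -2.97, lowest of the 52 -1.49) and the cholangiocyte list above it (1.31 and 1.57, highest 1.28). Under quantile normalization 15892 of 19437 tested probe sets were called higher in MSM and 566 lower. The counts higher and lower were then 10 and 0 for vascular endothelial genes, 7 and 0 for sinusoidal, 5 and 1 for stellate and 5 and 0 for smooth muscle. They were 3 and 0 for adipocyte, 0 and 2 for Kupffer, 3 and 0 for cholangiocyte and 2 and 1 for hepatocyte genes. The part of these cells in the level of Cav1 in MSM was not tested.

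The genes whose signals followed each member most closely over the 60 males were in part shared by Cav1 and Cavin2, through Plpp1. For Cavin1 1424130_a_at they were Myl9, the regulatory light chain of smooth muscle myosin (Spearman rho 0.77), Tagln, an actin-binding protein of smooth muscle (0.73), the collagen chain Col6a1 (0.67), the procollagen processing enhancer Pcolce (0.67) and Lhfp (0.67). For Cavin2 1416778_at they were both probe sets of Plpp1, a lipid phosphate phosphatase (0.68 and 0.60), Tmem204 (0.56), Fhl1 (0.54) and Arhgap31 (0.54). For Cav1 they were Hoxa9 (0.55), Fdx1 (0.54), both probe sets of Plpp1 (0.54 and 0.52) and Nipal3 (0.52), and for Cav2 Bms1 (0.59), Plxnc1 (0.59), Mrc1 (0.59), Dhx15 (0.58) and Tpp2 (0.56). For Cavin3 the highest was St6galnac5 (0.63). None of the 5 lists held another member of the family. The points share strains and arrays, so these are descriptions. Over the 30 strain means, Myl9 (0.85) and Tagln (0.79) remained the 2 closest to Cavin1, whereas none of the 5 genes named for Cav2 was among its closest 5. The Plpp1 probe sets were not among the closest 5 there either, with ranks 35 and 153 for Cav1 and 9 and 16 for Cavin2. For Cav1, Fdx1 was at rank 5 there, and Hoxa9 and Nipal3 were at ranks 439.5 and 1132.5.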

How the data were processed

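Liver RNA was measured on Affymetrix whole-genome mouse arrays, per the labels. The authors deposited 1 log2 signal per probe set and array, between 6.34 and 14.82. The logarithm was taken as base 2 because of that range. How signals were summarised and normalized is not given in the sources used here. Array medians lie between 7.4158 and 7.4168. Read from the values, deviations are shrunk by a factor that differs between probe sets.

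Of 45037 probe sets, 34945 carry a single gene symbol in GEO's platform annotation, and 19429 of these had 2 or more of 60 males above the median of all values (7.417) and were tested. Both arrays of each male were first averaged. Then limma 3.58.1 (R 4.3.3) was fitted with 1 mean per strain (30 residual degrees of freedom), with Benjamini-Hochberg adjustment within each contrast. Cavin3 failed the filter, so the contrasts meant for it were run only with no filter. The number of arrays limits the precision. Named genes are the members, the 5 probe sets most correlated with each member, the 5 tested genes on each side of Cav2 and Cav1, and up to 4 called genes of each list with the smallest adjusted p. Tfpi2, Lag3, Vamp8, Suclg2, Bid, Mug1, Cd36, Ehd1 and the listed genes called in Chr6C under quantile normalization were named after their values were seen. The members and the gene lists were chosen with earlier results of these data known. Gene order, promoters and symbols come from RefSeq on GRCm38.p6, whose gene IDs matched 34741 of the probe sets with 1 symbol. The fit was also tested on simulated data in which a set of changes was known.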

Additional observations from a re-analysis of the deposited data

Results flagged for a closer look

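Cav2 differed by a direct contrast between the 2 strains that carry a part of MSM chromosome 6. Both strains were on the MSM side at the probe sets from Vamp8 to Mug1 in which MSM stood apart. By these signals the contrast does not set 2 separate parts against each other. The signal of 1417327_at was higher in Chr6C than in Chr6T by 0.0173 (limma adjusted p = 0.00144), with both Chr6C livers above both Chr6T livers. The call was lost without Chr6C male 2 (adjusted p = 0.533) and without Chr6T male 2 (adjusted p = 0.138). The same contrast in Cav1 was 0.138 and missed the threshold (adjusted p = 0.168), with 1 of the 2 Chr6C livers far above the others.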

How the results depend on the processing

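The rise of Cav2 in Chr6C against the other consomic strains passed the threshold in all 8 alternatives run, between 0.0093 and 0.0253 (adjusted p from 8.32e-18 to 0.00886), of which the contrasts with 1 Chr6C liver take their error from the other strains. Leaving out single males moved Cav1 in Chr6C between 0.0183 and 0.255, Chr6C against Chr6T between 0.0192 and 0.256 for Cav1 and between 0.0092 and 0.0253 for Cav2 (called no longer without Chr6C male 2 or Chr6T male 2), and Cavin2 1416779_at in Chr1 between 0.0026 and 0.0038. In Chr6T, where neither caveolin was called, the sign turned, with Cav1 between -0.0071 and 0.0052 and Cav2 between -0.0016 and 0.0016, and with B6 as reference Cav2 was -0.0011. Over single males left out, the member probe sets called by the F test numbered 1 to 5, the calls against the other strains 2 to 6 and those against B6 0 to 4, and the caveola residents lower in MSM 1 to 3.

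With 1 probe set per gene, the F test called 2 and the contrasts with the other strains 2, since fewer member probe sets were tested. Without the strains of the gene's own chromosome the F test called 1. Without the Chr6C strain, an alternative chosen after seeing the data, 2 calls were made against the other strains and 0 against B6. With no filter 1 call was made against B6. Fitting the 120 arrays with the male as a random block, Cav1 in Chr6C against Chr6T passed the threshold (0.138, adjusted p = 9.48e-07), as did Cavin2 1416778_at in Chr1 (0.00048, adjusted p = 0.0118), and 1 machinery gene and 5 residents were lower in MSM. That fit takes the same correlation between arrays of a male for all probe sets. For Cav1 the SD between males (0.0316) was far above that between arrays (0.0083), so its error in that fit can be too small. The Cav1 difference still came from 1 of the 2 Chr6C livers. With B6 as reference Cavin2 1416779_at in Chr1 was 0.0028 and missed the threshold. Under quantile normalization 7 machinery genes and 11 residents were higher in MSM and 1 resident lower, where 15892 of 19437 probe sets were higher and 566 lower. The causes were not tested. Cavin3 has values only with no filter, where its differences in Chr7, Chr7C and Chr7T had adjusted p values of 0.984 or more.

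No paired analysis was possible because the numbers of the males count animals within a strain and no number is shared between males of different strains. With 2 males a strain, a difference carried by 1 liver, as in Cav1, cannot be settled here. In all member probe sets except those of Cav1, Cav2 1417327_at and Cavin1 1424130_a_at, the SD between males of a strain was below that between arrays of a male. The first is taken over means of 2 arrays and the second over single arrays. The comparison therefore does not show that males were alike. For Cav1 the SD between males was 0.00799 without Chr6C, below that between arrays (0.00835).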
